A study of Mus musculus with 4 samples.

Results

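The S100 genes encode small calcium binding proteins, and 8 of them were described in mouse liver: S100a1, S100a4, S100a6, S100a8, S100a9, S100a10, S100a11 and S100a13. They were chosen by gene name, as the non-control probes of the arrays that carry 1 of these 8 symbols, and each symbol had 1 probe with 1 spot. All 8 were among the 18041 genes tested. The livers labelled Plin2-ASO came from 4 male C57BL/6 mice on a high-fat diet that received an antisense oligonucleotide (ASO) against Plin2, which encodes a coat protein of lipid droplets. The control livers came from 4 mice of the same sex, strain and diet that received a scrambled oligonucleotide. An ASO is a short synthetic strand made to pair with a transcript and lower it. Both oligonucleotides were injected into the abdomen at 25 mg/kg, 2 times a week for 4 weeks. Each of the 4 Agilent arrays of 2 colours set the liver of 1 Plin2-ASO mouse (mice 6, 7, 9 and 10 on arrays 1 to 4) against that of 1 control mouse (mice 1, 2, 4 and 5).

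S100 proteins are mostly dimers, and calcium binding opens a surface through which each dimer holds its target protein. Inside cells they act on annexins, the cytoskeleton and calcium pumps, and several are also released and then bind receptors such as TLR4 and RAGE. In liver they are known mainly from infiltrating myeloid cells, bile duct cells and activated stellate cells, and from damaged or transformed hepatocytes. In RNA of whole tissue, fewer cells of a type and less RNA per cell cannot be told apart.

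Values are given as log2 ratios of Plin2-ASO over control within an array, and as log2 levels, the normalized log2 signal of 1 probe in 1 liver. A level is comparable between livers of 1 group but not between probes. Between the groups it also holds any dye effect of the probe, since each group was read in 1 colour. A gene was called lower or higher when its mean log2 ratio differed from 0 with an adjusted p under 0.05 in limma, with Benjamini-Hochberg adjustment over all 18041 genes. Plin2, the target, was not lower: its ratios on arrays 1 to 4 were 0.24, 0.15, 0.83 and 0.36 in log2, with a mean of 0.40 ± 0.15 (SE, n = 4) and an adjusted p of 0.156. The livers are therefore named by their labels. Every array had Plin2-ASO in green (Cy3) and control in red (Cy5), so a dye effect of a probe and the treatment cannot be told apart, and every direction would be mirrored if dyes or labels were exchanged. Array 3 stood apart, with a mean correlation of 0.33 with the log2 ratios of the other arrays across genes. The same mean was 0.51 to 0.65 for arrays 1, 2 and 4, each taken with all its other arrays, array 3 included. On array 3, 7.61% of spots were marked as outliers, against 1.5% to 3.83% on the others. Its median signal was 244 in green and 637 in red, against 330 to 499 and 256 to 375 on the others. Its log2 ratios had a correlation of -0.28 with the GC content of the probes, against 0.06 to 0.26.

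S100a11 had the lowest log2 ratio of the 8 genes and was called lower, as was S100a9. S100a8, S100a6 and S100a10 had mean log2 ratios below 0 without passing the test, and S100a4, S100a1 and S100a13 had means between -0.01 and 0.20. Thus 2 of 8 S100 genes were called lower and 0 higher, where 6.08% of all genes tested were called lower and 3.69% higher. The median of the 8 mean log2 ratios was -0.92, against -0.03 over all genes tested. On array 3 the median of the S100 genes was 0.06, against -1.18, -1.23 and -0.77 on arrays 1, 2 and 4. All 8 probes were well above background in all 8 livers. S100a8 was nevertheless dim in the Plin2-ASO livers, with signals of 278, 194, 210 and 366 on arrays 1 to 4. Each was below the median green signal of its array (330, 392, 244 and 499).

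**Figure D1:**
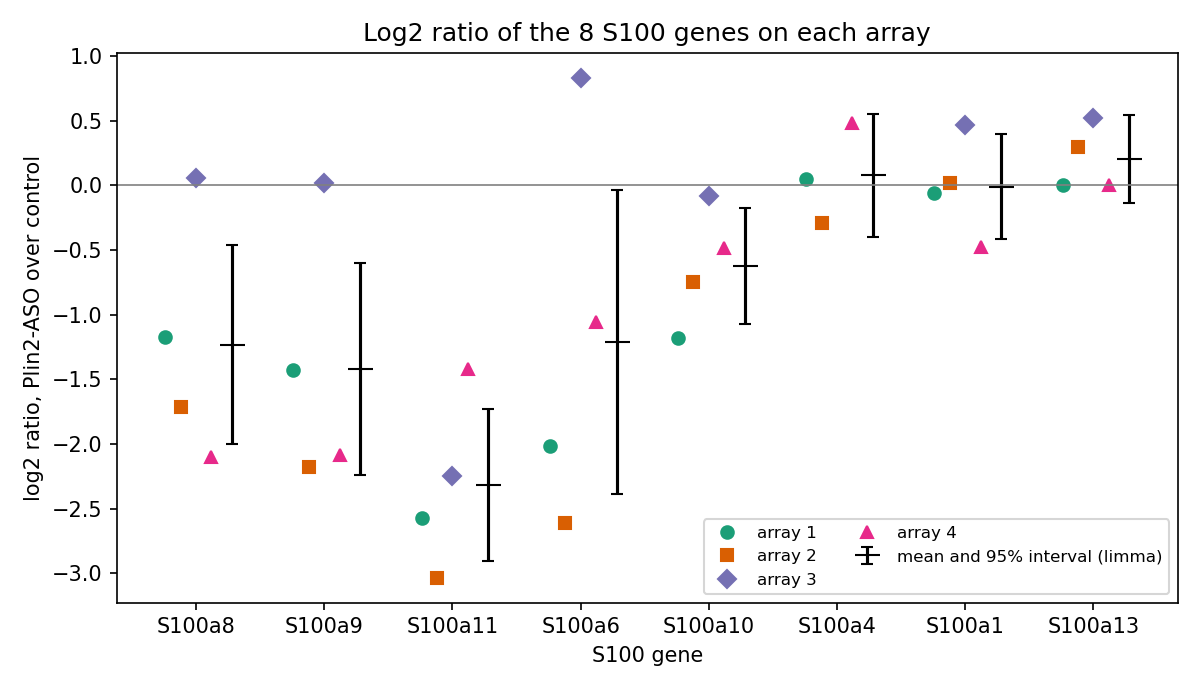
Log2 ratio of Plin2-ASO over control of the 8 S100 genes (x axis) on arrays 1 to 4 (coloured symbols), with the mean and its 95% interval from limma in black. The 4 values of S100a11 lie between -3.03 and -1.42, while array 3 is near or above 0 for the other genes; S100a4 has no value on array 3.

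S100a8 and S100a9 encode the 2 subunits of calprotectin, a dimer that fills the cytoplasm of neutrophils and monocytes and, once released, binds zinc and TLR4. Both genes lie on chromosome 3. Their probes lie at 90800058 to 90800117 (S100a8) and 90822865 to 90822924 (S100a9) of mouse build mm7, as the files give them. The log2 level of S100a8 was 8.16, 7.37, 8.17 and 7.89 in the Plin2-ASO livers of arrays 1 to 4, against 9.33, 9.08, 8.11 and 10.00 in the control livers. Only the control liver of array 3 fell within the range of the Plin2-ASO livers. The log2 level of S100a9 was 9.98, 9.14, 10.39 and 9.92 in the Plin2-ASO livers, against 11.41, 11.32, 10.37 and 12.01 in the control livers. Again the control liver of array 3 was the lowest control liver, at about the level of the Plin2-ASO liver on the same array.

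The log2 ratios of S100a8 were -1.17, -1.72, 0.06 and -2.10 on arrays 1 to 4, with a mean of -1.23 ± 0.33 (SE, n = 4; 2.35-fold lower), which did not pass the test (adjusted p = 0.0590). Those of S100a9 were -1.43, -2.18, 0.02 and -2.09, with a mean of -1.42 ± 0.35 (2.68-fold lower), which passed narrowly (adjusted p = 0.0475). Both genes were thus lower on arrays 1, 2 and 4 and near 0 on array 3. The call of S100a9 was lost under 8 of 22 other settings, among them leaving out array 1, 2 or 4 (adjusted p = 0.184, 0.200 and 0.145), and the call of S100a8 was gained under 8. Without array 3 the mean was -1.66 for S100a8 and -1.90 for S100a9 (adjusted p = 0.000555 and 0.000250).

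The 250 bases before the start of each gene are shown for S100a8 and S100a9 because these genes had like ratios on all 4 arrays, and the sequences are from RefSeq, build GRCm38.p6 (a later build than that of the probes). Of the 8 S100 genes 7 had a promoter in that table, and S100a10 had no entry. The S100a8 window is chr3:90668821-90669070, forward strand, and the S100a9 window is chr3:90695722-90695971, reverse strand, both read 5′ to 3′ with each match to TATAAA or to the AP-1 motif TGANTCA, searched on both strands, in capitals.
S100a8: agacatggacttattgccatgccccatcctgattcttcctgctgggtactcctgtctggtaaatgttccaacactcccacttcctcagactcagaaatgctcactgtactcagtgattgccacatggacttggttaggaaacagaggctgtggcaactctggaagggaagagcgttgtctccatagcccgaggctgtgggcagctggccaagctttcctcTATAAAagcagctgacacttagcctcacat
S100a9: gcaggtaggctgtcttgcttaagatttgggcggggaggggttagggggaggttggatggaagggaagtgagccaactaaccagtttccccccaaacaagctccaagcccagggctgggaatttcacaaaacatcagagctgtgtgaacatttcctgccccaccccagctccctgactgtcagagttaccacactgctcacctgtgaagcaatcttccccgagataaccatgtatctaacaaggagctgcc
The S100a8 window held 1 TATAAA, from 30 to 25 bases before the start, and S100a9 held neither motif in its window. Of 32851 promoter windows of the same length, 12.4% held TATAAA and 6.75% held TGANTCA.

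Receptors and signalling genes of S100A8 and S100A9 were measured beside them. Of 16 genes in this list 3 were lower and 0 higher, with a median log2 ratio of -0.21. With all 4 arrays, 6.08% of all genes tested were called lower and 3.69% higher. These are the shares beside the counts of each list below. Cd14, the co-receptor of TLR4 on myeloid cells, had log2 levels of 8.47, 8.55, 9.25 and 9.14 in the Plin2-ASO livers and 11.45, 11.91, 10.22 and 10.81 in the control livers. Every Plin2-ASO liver was thus below every control liver, as for 10.8% of the 16129 genes measured on all arrays. The mean log2 ratio of Cd14 was -2.25 ± 0.38 (4.75-fold lower, adjusted p = 0.0144). Cd36, a fatty acid and scavenger receptor that binds the S100A8/A9 complex with its lipid, had a mean log2 ratio of -2.22 ± 0.34 (adjusted p = 0.0103), which is 4.66-fold lower, with all 4 arrays below 0. Emb, which encodes the cell surface protein embigin, a binding partner of S100A8/A9, had a mean of -1.31 ± 0.20 (adjusted p = 0.0101), and a second probe of it gave -0.69. Tlr4 itself had a mean log2 ratio of -0.23 ± 0.13 (adjusted p = 0.317), and Ager, which encodes RAGE, one of 0.17 ± 0.26 (adjusted p = 0.728). These 2 receptors were chosen after their values were seen.

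Markers of the cells that carry calprotectin did not all move with it. Of 15 neutrophil markers tested 1 was lower and 0 higher, where 6.08% of all genes tested were lower, and their median log2 ratio was -0.10. The lower one was Mmp8, the neutrophil collagenase, with a mean of -1.49 ± 0.22 (2.81-fold lower, adjusted p = 0.0101). The mean log2 level of the 14 neutrophil markers measured on all arrays was 8.87 to 9.23 in the Plin2-ASO livers and 9.03 to 9.23 in the control livers. Among these, Elane, Retnlg, Mmp8, Ctsg and Cd177 were well above background in only 3 of 4 Plin2-ASO livers. The mean also holds Lcn2, with log2 ratios of -2.01, -1.81, -1.28 and 2.41 on arrays 1 to 4. It therefore cannot show that neutrophils were unchanged. No probe carried the name Ly6g, Cxcr2 was measured on too few arrays, and Fcnb, Il1b and Trem1 were not well above background on enough arrays. Of 16 monocyte and macrophage markers 9 were lower and 4 higher, with a median of -0.95, and the mean level of 14 of them was 10.34 to 10.86 in the Plin2-ASO livers, against 11.18 to 11.94 in the control livers. That mean level leaves out Clec4f and Marco, which were called higher but were not measured on all arrays. Trem2, a receptor of lipid-laden macrophages, was 4.85-fold lower (adjusted p = 0.00147), while Cd163, Clec4f and Vsig4, which mark resident liver macrophages, were 8.46-fold, 5.15-fold and 5.75-fold higher (adjusted p = 0.00143, 0.00147 and 0.00172). The part of these cells in the S100a8 and S100a9 values was not tested.

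**Figure D2:**
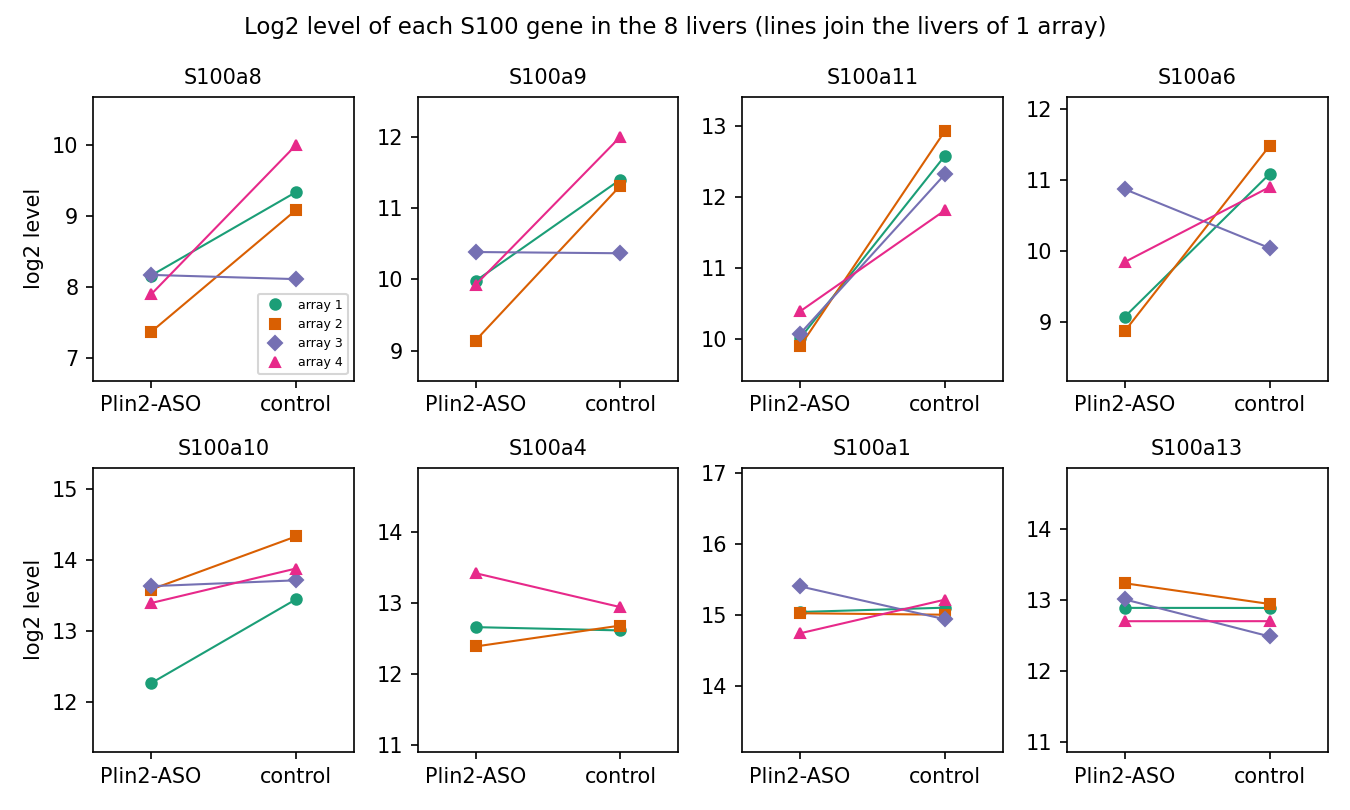
Log2 level of each S100 gene in the 4 Plin2-ASO livers (left) and the 4 control livers (right), on a scale of the same height in each panel, with lines joining the livers of 1 array. S100a11 separates the groups fully, and for S100a8 and S100a9 the control liver of array 3 sits among the Plin2-ASO livers.

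S100a11 encodes calgizzarin, which binds annexins A1 and A2 and takes part in membrane repair and growth control. Its probe lies at 93627811 to 93627870 of chromosome 3 (mm7). The log2 level was 10.02, 9.90, 10.08 and 10.40 in the Plin2-ASO livers of arrays 1 to 4, against 12.59, 12.94, 12.33 and 11.82 in the control livers. Every Plin2-ASO liver was below every control liver, as was the case for 10.8% of the 16129 genes measured on all arrays; among the 7 S100 genes measured on all arrays S100a11 was the only one. The log2 ratios were -2.57, -3.03, -2.25 and -1.42, with a mean of -2.32 ± 0.25 (SE, n = 4), that is 4.99-fold lower, and a 95% interval from -2.90 up to -1.73 (adjusted p = 0.00365). S100a11 was lower on array 3 as well, and its call held in all 22 other settings, with adjusted p between 6.13e-06 and 0.0306.

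The window before the S100a11 start is shown because it held a motif that most promoters lack. It is chr3:93520246-93520495, forward strand, build GRCm38.p6, from RefSeq, with the matches to TGANTCA in capitals; this motif reads the same on both strands.
S100a11: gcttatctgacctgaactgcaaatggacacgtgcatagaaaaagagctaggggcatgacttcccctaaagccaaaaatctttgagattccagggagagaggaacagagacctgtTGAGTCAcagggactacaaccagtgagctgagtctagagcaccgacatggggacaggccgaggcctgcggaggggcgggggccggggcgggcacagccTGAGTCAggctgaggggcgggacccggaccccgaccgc
Both matches had the letters TGAGTCA, from 136 to 130 and from 38 to 32 bases before the start, and TATAAA was not among the letters of the window. Among the 7 S100 genes with a window, S100a11 was the only one with TGANTCA, and S100a4 and S100a8 held TATAAA. A match of letters is no measurement of binding.

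The cytoplasmic partners of the S100 proteins included the annexins. Of 20 partners tested 5 were lower and 2 higher, with a median log2 ratio of -0.18. Anxa2, the partner of S100A10 and S100A11 at membranes, had log2 levels of 9.39, 9.62, 9.87 and 10.27 in the Plin2-ASO livers, against 12.37, 12.39, 12.09 and 12.24 in the control livers. Its log2 ratio was -2.98, -2.76, -2.22 and -1.97, with a mean of -2.48 ± 0.19 (5.59-fold lower, adjusted p = 0.00147). A second probe of Anxa2 gave -1.94. Anxa5, a phosphatidylserine binding annexin, was 2.26-fold lower (adjusted p = 0.00675), with each of the 4 arrays below 0. Anxa1, the other annexin that S100A11 binds, which was named after its values were seen, had log2 ratios of -1.55, -2.17, -0.11 and -1.26 (mean -1.27 ± 0.30, adjusted p = 0.0436). Like S100a8 and S100a9 it was near 0 on array 3. The other 2 annexins of the list, likewise picked with their values known, missed the threshold: Anxa6 had a mean log2 ratio of 0.40 ± 0.19 (adjusted p = 0.222), with -0.22 by a second probe, and Anxa11 one of -0.06 ± 0.15 (adjusted p = 0.821). Ahnak, a giant scaffold protein that binds the S100A10 and annexin A2 complex, was 1.73-fold higher by its brightest probe (adjusted p = 0.0150), but its 4 other probes gave means of -0.98, -0.85, -0.07 and 0.04.

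S100a10 encodes p11, which lacks calcium binding, is held in a tetramer with annexin A2 and gives plasminogen a place on the cell surface. The log2 level of S100a10 was 12.26, 13.58, 13.63 and 13.39 in the Plin2-ASO livers, against 13.44, 14.33, 13.71 and 13.87 in the control livers. On every array the Plin2-ASO liver was below its control liver, but the groups overlapped, since 2 Plin2-ASO livers were above the lowest control liver. The log2 ratios were -1.18, -0.75, -0.08 and -0.49, with a mean of -0.62 ± 0.19 (SE, n = 4; 95% interval -1.07 to -0.17; adjusted p = 0.0878). The value without array 3 was -0.80 (adjusted p = 0.00613). Of 7 plasminogen genes tested 0 were lower and 0 higher by limma, and their median log2 ratio was -0.24. The smallest p-values among them belonged to Plat, the tissue activator of plasminogen (mean -0.79 ± 0.21, adjusted p = 0.0574), and Eno1, an enolase that also binds plasminogen on cells (0.51 ± 0.17, adjusted p = 0.107).

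S100a6 encodes calcyclin, a protein of growing fibroblasts and epithelial cells, and had the widest spread of the 8 genes. Its log2 level was 9.07, 8.87, 10.87 and 9.85 in the Plin2-ASO livers, against 11.09, 11.48, 10.04 and 10.90 in the control livers. The Plin2-ASO liver of array 3 was the highest of its group and the control liver of array 3 the lowest of its group. The log2 ratios were -2.01, -2.61, 0.83 and -1.05, with a mean of -1.21 ± 0.50 (SE, n = 4), a 95% interval from -2.39 up to -0.04 (adjusted p = 0.175), which did not pass the test. Without array 3 the mean was -1.89 (adjusted p = 0.00142), and without array 1 or 2 it was -0.95 and -0.75 (adjusted p = 0.497 and 0.499).

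S100a4, also called fibroblast-specific protein 1, binds nonmuscle myosin and is used as a marker of fibroblasts and some macrophages. Its log2 level was 12.66, 12.38 and 13.41 in the Plin2-ASO livers of arrays 1, 2 and 4, against 12.61, 12.68 and 12.94 in the control livers, and its spot on array 3 was marked as an outlier by the scanning software. The log2 ratios were 0.05, -0.29 and 0.48, with a mean of 0.08 ± 0.20 (SE, n = 3) and a 95% interval of -0.40 to 0.55 (adjusted p = 0.842). The sign differed between arrays. Myh9, the myosin heavy chain that S100A4 binds, was 1.87-fold lower by its brightest probe (adjusted p = 0.0196), while another probe gave 0.13. Of 16 markers of stellate cells and fibroblasts 9 were lower and 0 higher, with a median of -1.20. Their mean log2 level was 10.71 to 11.19 in the Plin2-ASO livers and 11.83 to 12.54 in the control livers (14 genes). Among them Col1a1 and Col3a1, the chains of fibrillar collagens, fell 7.72-fold and 6.12-fold (adjusted p = 0.00482 and 0.00417), Postn, a matrix protein, 4.49-fold (adjusted p = 0.00400) and Sparc, a collagen binding protein, 3.32-fold (adjusted p = 0.00482). Second probes gave smaller differences, with log2 ratios of -1.65 for Col1a1, -1.17 for Col3a1 and -1.53 for Sparc, against -2.95, -2.61 and -1.73 by the brightest probes. Thus S100a4 did not pass the test where 9 of these markers were lower, and the difference between them was not tested.

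S100a1, which acts on the calcium pump of muscle and is also present in other tissues, had log2 levels of 15.04, 15.03, 15.40 and 14.74 in the Plin2-ASO livers, against 15.10, 15.01, 14.94 and 15.22 in the control livers. The log2 ratios were -0.06, 0.02, 0.46 and -0.47, with a mean of -0.01 ± 0.17 (SE, n = 4) and a 95% interval of -0.42 to 0.39 (adjusted p = 0.972). S100a13, which carries FGF1 and interleukin 1 alpha out of cells by a route without a signal peptide, had log2 levels of 12.89, 13.24, 13.01 and 12.70 in the Plin2-ASO livers, against 12.89, 12.94, 12.49 and 12.70 in the control livers. Its log2 ratios were 0.00080, 0.29, 0.52 and -0.00050, with a mean of 0.20 ± 0.15 (SE, n = 4) and a 95% interval of -0.14 to 0.55 (adjusted p = 0.413). Of the cargo of S100a13, Fgf1 was higher (log2 ratios 0.96, 1.69, 0.40 and 1.42; adjusted p = 0.0239) and Il1a lower (-0.74, -0.90, -0.38 and -0.78; adjusted p = 0.0255). These 2 were named after their values were seen. The intervals of S100a1 and S100a13 leave out a change of the size seen for S100a11. The windows of S100a1 (reverse strand) and S100a13 (forward strand) overlap, and neither held TATAAA or TGANTCA.

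Other genes of the family were measured too. Of 5 tested 0 were higher, and S100g alone was counted as lower, but its probe passed the background filter only through the control livers, so that count is not read as a result. S100g, the vitamin D responsive calcium carrier calbindin-D9k on chromosome X, had log2 levels of 7.74, 7.62, 7.49 and 7.15 in the Plin2-ASO livers, against 9.15, 9.54, 8.42 and 8.56 in the control livers. The probe was well above background in 2 of 4 Plin2-ASO livers and in 4 of 4 control livers. Its log2 ratios of -1.42, -1.92, -0.93 and -1.41 are a description of signals near background, with no fold or test. S100a16, a widely expressed member of the family, had log2 ratios of -0.79, -0.06, -1.03 and -0.23 (mean -0.53 ± 0.19, adjusted p = 0.130). S100a3, S100a5 and S100a14, known from hair, sensory neurons and epithelia, had means of -0.28 ± 0.14, 0.02 ± 0.17 and 0.07 ± 0.17 (SE, n = 4; adjusted p = 0.249, 0.963 and 0.831). S100b, the astrocyte member, was measured on 2 arrays with log2 ratios of 0.89 and 0.64 and was not tested, and the probe of S100a7a did not pass the background filter.

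**Figure D3:**
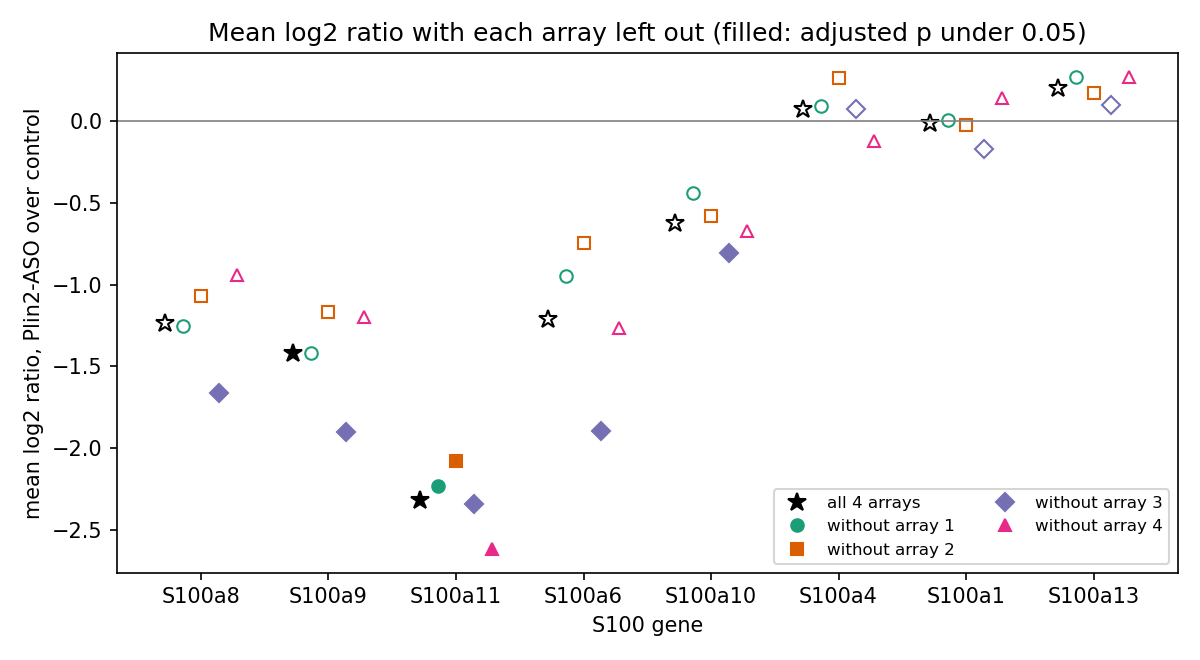
Mean log2 ratio of Plin2-ASO over control of each S100 gene with all 4 arrays (star) and with each array left out (coloured symbols), filled where the adjusted p was under 0.05. Only without array 3 are S100a8, S100a9, S100a11, S100a6 and S100a10 all filled; S100a11 is filled in every case.

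The number of S100 genes called depended on array 3. Without array 3, 5 of 8 were lower, where 20.3% of all genes tested were lower. Without array 1, 2 or 4 S100a11 alone was lower, where 1.15%, 1.24% and 3.42% of all genes were. Among the other named genes, Itgam left aside, Ahnak, Anxa1, Apob, Cd14, Cldn7, Emb, Fgf1, Il1a, Krt19 and Myh9 lost their calls without array 1 and without array 2 (adjusted p = 0.0549 to 0.196), and Anxa5 without array 1 (adjusted p = 0.0579). Ahnak, Anxa1, Apob, Fgf1, Il1a and Myh9 also lost theirs without array 4 (adjusted p = 0.0526 to 0.110). The Plin2-ASO liver of array 3 also had a higher mean level of adipocyte markers. The mean log2 level of 9 such markers was 11.56 in it, against 9.66 to 10.21 in the other Plin2-ASO livers and 10.14 to 10.63 in the control livers. That liver was also the highest of its group for the macrophage (10.86) and stellate cell markers (11.19), though below every control liver for both. Adipoq, the adipocyte hormone adiponectin, had ratios on arrays 1 to 4 of 0.39, -0.0020, 4.10 and 0.52 in log2. Fabp4, the fatty acid carrier of adipocytes and macrophages, had 1.69 on array 3, where arrays 1, 2 and 4 had -2.17 to -1.16, and Plin1, the lipid droplet coat of adipocytes, 1.96 on array 3, where they had -0.57 to -0.10. The list did not move as a whole on array 3, where Lep, the hormone leptin, had -0.13, Pparg, a regulator of fat cell genes, -0.27, Lpl, lipoprotein lipase, -1.71 and Cidec, a lipid droplet protein, 0.04. These genes, apart from Lpl, were named after their values were seen. Of the 9 adipocyte markers 1 was lower and 1 higher: Lpl was 5.31-fold lower (adjusted p = 0.00240) and Cfd, adipsin, 13.7-fold higher (adjusted p = 0.0218). The log2 ratios of Cfd were 1.1, 3.64, 6.45 and 3.91 on arrays 1 to 4. Cfd was 7.39-fold higher without array 3 and 25.4-fold without array 1, and its call was lost without array 2 or 4 (adjusted p = 0.0821 and 0.0621). The part of adipocyte RNA in the S100 values of array 3 was not tested.

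**Figure D4:**
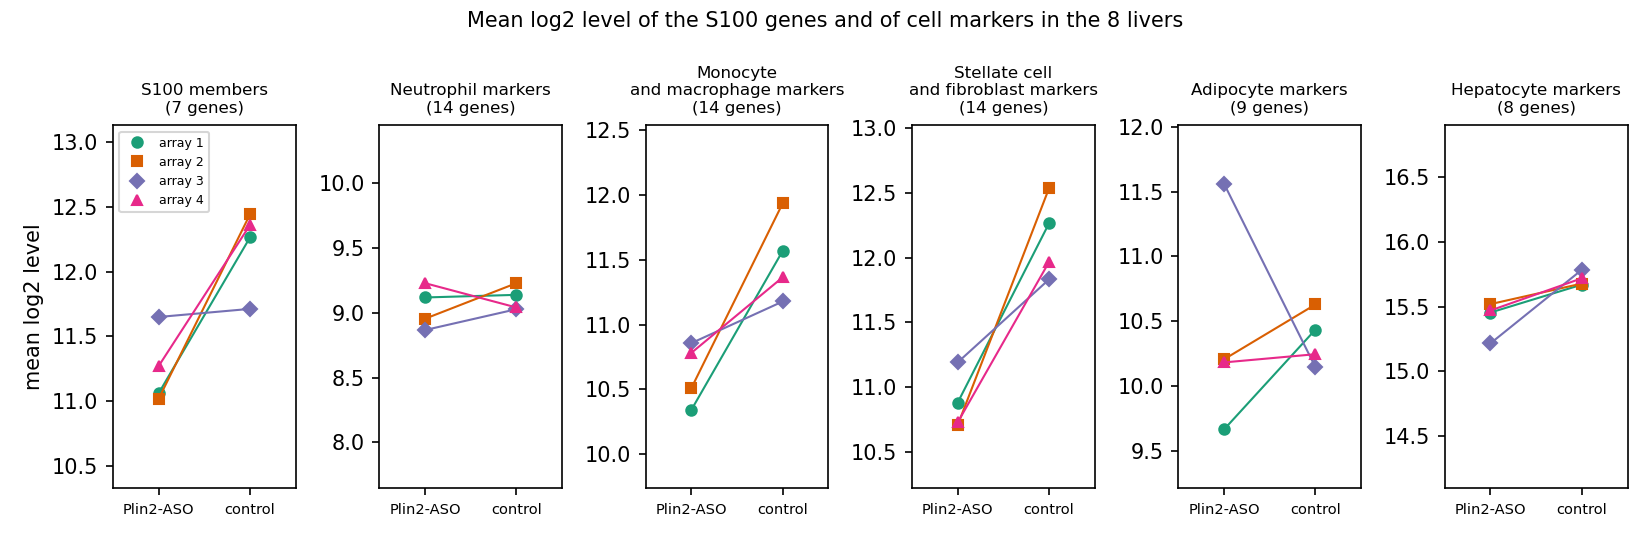
Mean log2 level of 7 S100 genes and of 5 sets of cell markers in the Plin2-ASO livers (left) and control livers (right), over the genes measured on all arrays, with lines joining the livers of 1 array. The Plin2-ASO liver of array 3 is the highest of its group for the S100 genes (11.65) and for the adipocyte (11.56), macrophage (10.86) and stellate cell markers (11.19). It is the lowest of its group for the neutrophil (8.87) and hepatocyte markers (15.22). The mean of the neutrophil markers differs little between groups, though single markers in it differ more.

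The livers carried the markers of their tissue. The mean log2 level of 8 hepatocyte markers was 15.22 to 15.52 in the Plin2-ASO livers and 15.67 to 15.78 in the control livers. Of 10 tested 3 were lower and 0 higher, with a median log2 ratio of -0.28 and a mean below 0 for 7. The lower ones were Alb, albumin, 3.25-fold (adjusted p = 0.00172), Ahsg, fetuin-A, 6.51-fold (adjusted p = 0.00172) and Apob, the apolipoprotein of very low density lipoprotein, 1.53-fold (adjusted p = 0.0306). Hnf4a had a mean log2 ratio of 0.78 (adjusted p = 0.0731), with 0.98 and 1.26 by its other probes. Asgr1 and Tat had means of 0.22 and 0.27 (adjusted p = 0.297 and 0.590). Hnf4a, Asgr1 and Tat were named after their values were seen. Bile duct cells are also known to carry S100 proteins. Of 9 of their markers 3 were lower and 0 higher: Spp1, osteopontin, 4.67-fold, Cldn7, a tight junction protein, 1.89-fold and Krt19, a keratin, 1.69-fold (adjusted p = 0.00658, 0.0103 and 0.0319). The median log2 ratio of the 9 was 0.06. The 8 lymphocyte markers tested had a median log2 ratio of -0.11.

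**Figure D5:**
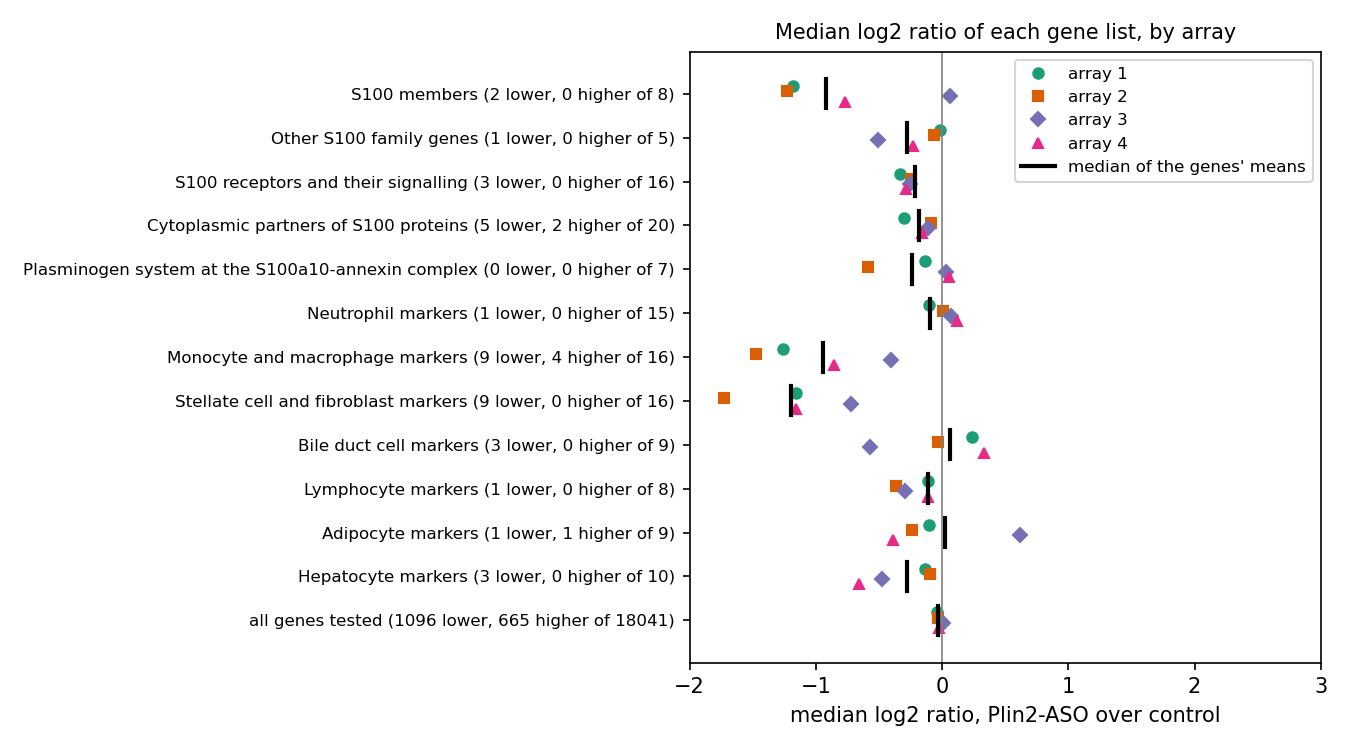
Median log2 ratio of Plin2-ASO over control in each gene list on arrays 1 to 4 (symbols) and over the genes' means (black bars), with the counts of genes called beside each list. The S100 genes (-0.92) lie near the macrophage (-0.95) and stellate cell (-1.20) markers, and array 3 (0.06) is the only array on which the S100 median is above 0.

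By likeness, the genes whose 4 log2 ratios differed least from those of S100a11, among 12606 named genes measured on all 4 arrays, were Bex4, Cd63 and Anxa2, with root-mean-square differences of 0.34, 0.35 and 0.37. Cd63 encodes a tetraspanin of late endosomes, and the mean log2 ratios of Bex4 and Cd63 were -2.51 and -2.54. For S100a9 they were Gng11, Pf4 and Rpap3 (differences 0.25, 0.30 and 0.33), of which Pf4 encodes platelet factor 4, with log2 ratios of -1.70, -2.59, -0.07 and -2.42. For S100a8 they were Acsl4, Cenpw and Colec10 (0.21, 0.22 and 0.27). Acsl4, an acyl-CoA synthetase for arachidonic acid, had log2 ratios of -1.07, -1.61, -0.10 and -1.73.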

How the data were processed

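Liver RNA of 4 mice labelled Plin2-ASO and 4 control mice was measured on 4 arrays of 2 colours on 1 slide in 1 scan, so no batch could be separated. The spot intensities come from Feature Extraction 9.5.1.1, per the file headers, and are used as deposited, before background subtraction. The deposited log10 ratios (red over green), and the log2 ratios of the series table that the authors deposited, which equal them, were alternatives only.

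Normexp (offset 50) served for the background and loess for the ratios within an array in limma 3.58.1 under R 4.3.3, with outlier spots set to missing. Ratios were turned to Plin2-ASO over control. Probes well above background on at least 3 of 4 arrays in 1 channel were kept (27160 of 41174), and the brightest probe of a gene measured on at least 3 arrays stood for it. Of 18638 genes past this filter 597 had too few arrays. Mean log2 ratios were tested against 0 (eBayes, two-sided, Benjamini-Hochberg at 0.05), which took the 2 livers of an array as a pair. Levels are from Aquantile normalization. The fit was tested on simulated data. With nothing in the labels on separate cages or extractions, p-values measure the spread between these pairs of mice, each pair read on its own array. Differences between mice and between arrays cannot be told apart in that spread.

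The S100 genes and the gene lists were chosen with earlier results of these data known. From each list the text names the genes past the threshold, at most the 4 with the smallest p, or the 2 with the smallest p where none passed, besides every other S100 gene tested and the 3 genes most like each of the 3 S100 genes with the smallest p. Not every gene that the rule chose is reported here. Probes were named through RefSeq tables of GRCm38.p6 by accession or symbol; 8437 stayed under their deposited name.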

Additional observations from a re-analysis of the deposited data

Results flagged for a closer look

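In 12 of 190 groups of 4 values, 1 value lay far from the others by Dixon's criterion at 95%, which chance alone passes in about 1 of 20 groups, and none of the 12 belonged to the 8 S100 genes. Array 3 held 10 of them. For Adipoq the log2 ratio was 4.10 on array 3, against -0.0020 to 0.52 on the others, the level in the Plin2-ASO liver was 11.90, against 8.27 to 8.76 in the other Plin2-ASO livers, and the level in the control liver was 7.80, against 8.24 to 8.30. Fabp4 had a level of 15.30 in the Plin2-ASO liver of array 3, against 12.39 to 12.72 in the other Plin2-ASO livers. Pf4 had 10.20 there, against 8.81 to 9.03, and Ahnak 12.94, against 13.30 to 13.33. Gng11 had a log2 ratio of -0.12 on array 3, against -1.88 to -1.72, and a level of 12.29 in the control liver, against 12.99 to 13.07. S100a5 had a level of 8.70 in the control liver of array 3, against 7.62 to 7.80 in the other control livers, and Vsig4 a log2 ratio of 3.33, against 2.19 to 2.33. On array 1, Cd36 had a level of 10.48 in the Plin2-ASO liver, against 12.10 to 12.39, and Apob a log2 ratio of -0.38, against -0.70 to -0.69.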

How the results depend on the processing

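Of 22 other settings 21 were planned, and 1, the brightest probe taken before the minimum of arrays, was chosen after seeing the data. S100a11 kept its direction and its call in all 22, with means between -2.62 and -2.08. S100a6, S100a8, S100a9 and S100a10 kept their direction in all 22. The number of S100 genes lower was 1 with the software's ratios, the series table, no filter on dim probes, a strict filter or outlier spots kept, 3 with median centring, scale normalization, separate or independent channels or a GC correction, 4 at an adjusted p under 0.1 (where 1807 of 18041 genes were lower), 5 with array quality weights and 1 to 5 with 1 array left out. S100a9 lost its call under the first 5 of these settings (adjusted p 0.0506 to 0.0762). Under those 5, in the order given, 857 of 18041, 764 of 18638, 1040 of 27149, 845 of 15079 and 919 of 18638 genes were lower. Under the 5 settings with 3 S100 genes lower, the numbers were 881, 1253, 1390, 1193 and 1331, of 16129 genes with separate channels and of 18041 otherwise. Of 131 genes in the other lists, 63 were lower and 19 higher with array quality weights, against 36 and 7 in the main setting, and 16 to 55 were lower and 3 to 17 higher with 1 array left out. S100a1, whose mean was -0.01, had 0.00030 at an offset of 16, 0.0851 with the software's ratios and the series table, 0.0033 without array 1 and a range of -0.17 to 0.14 with 1 array left out. S100a4, at 0.08, had -0.11 with the series table, -0.047 with outlier spots kept, -0.012 with array quality weights and -0.12 to 0.26 with 1 array left out. With separate channels S100a4 had no value, since it lacked array 3. The cause of the other changes was not tested. Over all genes, 4213 were lower and 2794 higher with array quality weights, 3666 and 2245 without array 3, 207 and 145 without array 1, and 223 and 164 without array 2, against 1096 and 665. No paired analysis was possible beyond this because the ratio within an array already pairs its livers; with the channels as independent samples, no replicate block, S100a8 was called (adjusted p = 0.0411) and S100a9 and S100a11 kept their calls. The number of arrays limits precision.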
